A study of Mus musculus with 30 samples.

Results

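The 8 genes described here were listed together as club and secretory airway genes. They are the secretoglobins Scgb1a1, Scgb3a1 and Scgb3a2, the cytochrome P450 Cyp2f2, the mucins Muc1 and Muc5b, the keratin Krt15 and the lectin Reg3g. They were chosen by gene symbol in the array's annotation, out of 18194 genes named on the array, and each had exactly 1 probe set. The study measured RNA of lung and liver from CD-1 mouse fetuses (CD-1 is an outbred stock) on 30 Affymetrix arrays, 15 per tissue. Dams were gavaged with PFOS (perfluorooctane sulfonate, a persistent fluorinated surfactant) as its potassium salt in 0.5% Tween 20 on gestation days 1 to 17, and fetal tissue was taken on day 18. The groups used were lung at 0, 5 and 10 mg/kg/day and liver at 0, 5 and 10 mg/kg/day, with 5 litters in each. Unexposed dams received the same Tween 20 vehicle, per the design text. Each array carries pooled RNA of 3 fetuses of a litter, from a portion of the organ, so values describe litters and not single fetuses. Levels are the deposited log2 values, and changes are log2 differences, PFOS minus unexposed unless another pair is named.

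Club cells are dome-shaped secretory cells of the conducting airways. They release secretoglobins, small secreted proteins of which Scgb1a1 is the classic club cell product, and in mice they carry the xenobiotic-metabolising enzyme Cyp2f2. Mucins coat and lubricate the epithelium, and Nkx2-1 and the FOXA factors are transcription factors known to act on secretoglobin and surfactant genes in lung.

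The labelled tissues bore their defining markers: the surfactant gene Sftpc read 13.52 to 13.61 in lung and 4.22 to 6.77 in liver, and albumin, Alb, read 11.22 to 13.17 in lung and 13.82 to 13.89 in liver. The mean of 10 hepatocyte genes ran in lung from 8.35 to 9.65 at 0, from 8.79 to 10.01 at 5 and from 7.84 to 9.57 mg/kg/day at 10, against 12.98 to 13.13 in liver. The mean of 9 cardiac muscle genes spanned 6.93 to 10.21 over the lung litters. Arrays of 1 group correlated with r of 0.9895 to 0.9947 in lung and 0.9904 to 0.9932 in liver across probe sets, which are not independent. Litter 1 of the lungs at 5 mg/kg/day stood apart in Scgb3a1 and Reg3g, and litter 4 of the unexposed livers in Scgb3a1, Scgb3a2 and Reg3g. Dose changes that rest on them are given with and without them. In RNA of a piece of tissue, fewer cells of a type and less RNA per cell cannot be told apart.

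No member passed the test with PFOS in lung at either dose. Of the 8 members tested there, 0 were called at 5 mg/kg/day, where 0.0155% of all 12898 genes tested were called, and 0 at 10 mg/kg/day, where 0.0543% were called (limma, adjusted p under 0.05). An unadjusted p under 0.05 was reached by 2 members at the lower dose, Krt15 and Cyp2f2, and by 1 at the higher, Cyp2f2, against 596 and 891 of all genes. Comparing 10 with 5 mg/kg/day, 0 members and 0% of all genes were called, while 0 members and 296 genes reached an unadjusted p under 0.05. The members' median change was 0.05 at 5 and 0.09 at 10 mg/kg/day, with a median over all genes tested of 0.004 and 0.005. In liver, 6 members could be tested and 1, Cyp2f2, fell at both doses. Of all 13270 genes tested there, 6.06% were called at 5 and 10.5% at 10 mg/kg/day, with 1.8% and 5.21% called lower.

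**Figure D1:**
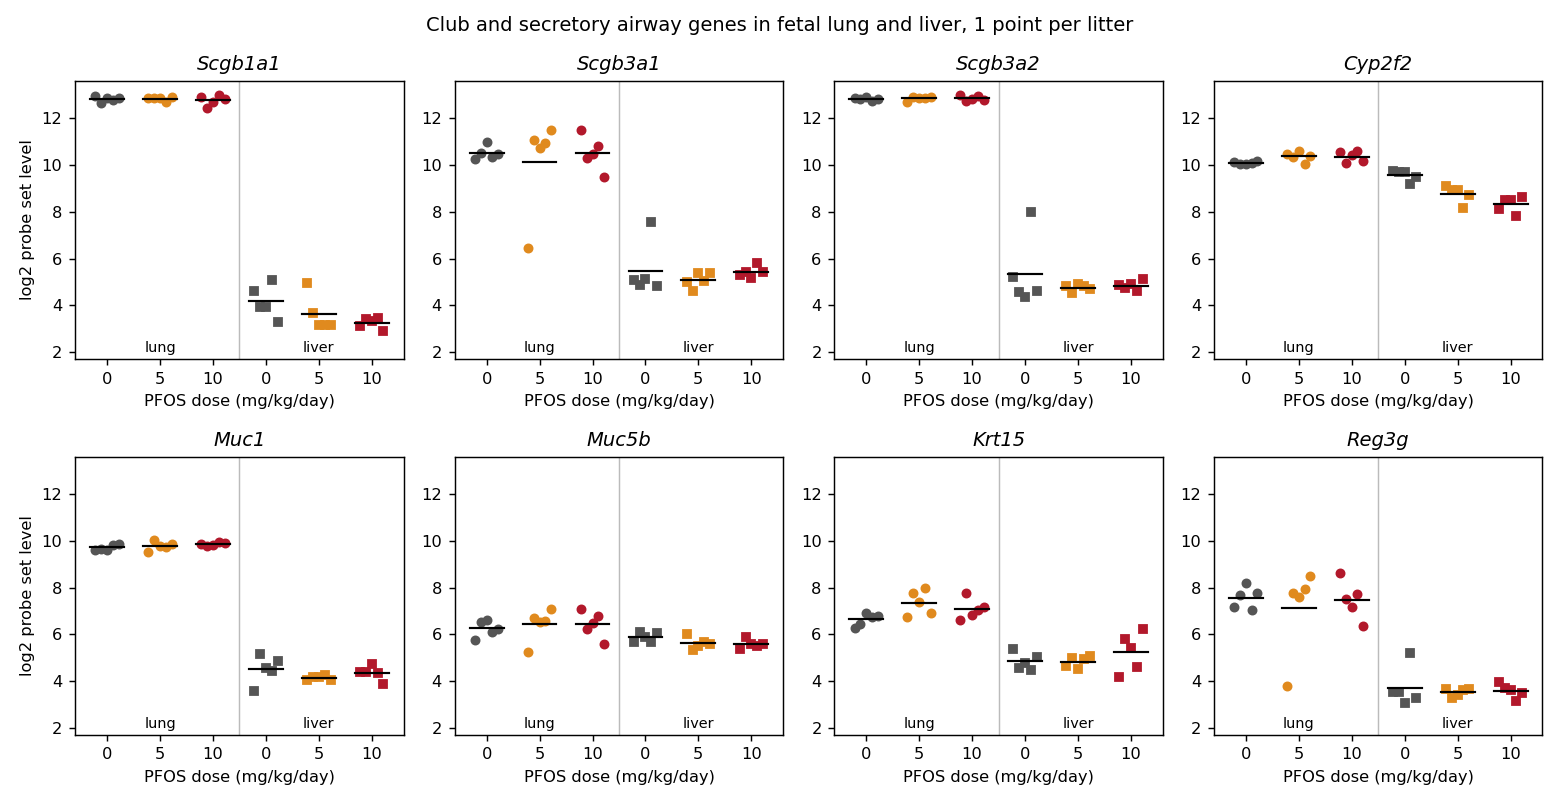
Log2 level of each member (y axis) in fetal lung (circles) and fetal liver (squares) by PFOS dose in mg/kg/day (x axis); each point is 1 litter, in order of litter number, and the bar is the mean of 5 litters. Scgb1a1 and Scgb3a2 lay between 12.45 and 13.01 in the lung litters, single litters stood apart in Scgb3a1, Scgb3a2 and Reg3g, and Cyp2f2 was lower in exposed than in unexposed livers.

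Scgb1a1 and Scgb3a2 were high and steady in lung at every dose. Scgb1a1 (probe set 1452543_a_at, chr19:9083642-9087956 on GRCm38.p6), the main secreted protein of club cells, read 12.94, 12.67, 12.90, 12.79 and 12.89 in the unexposed lungs. At 5 mg/kg/day it read 12.88, 12.88, 12.88, 12.70 and 12.92, and the litters given 10 mg/kg/day read 12.90, 12.45, 12.68, 12.99 and 12.84. The dose groups overlapped, and the widest spread was at 10 mg/kg/day. Its change was 0.01 at 5 (95% interval -0.18 to 0.21, limma adjusted p = 0.998) and -0.06 at 10 mg/kg/day (-0.26 to 0.13, adjusted p = 0.917). A rise or fall of more than 0.26 on the log2 scale thus lay outside both intervals. Levels this close to the top of an array's range can respond less than the RNA does, and how far that holds here was not tested.

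Scgb3a2 (1425218_a_at, on chromosome 18), a secretoglobin of the embryonic and adult airway, read 12.87, 12.82, 12.94, 12.75 and 12.84 in unexposed lungs. It read 12.72, 12.92, 12.88, 12.86 and 12.93 at 5 and 13.01, 12.75, 12.84, 12.98 and 12.79 at 10 mg/kg/day. All 15 lung litters lay between 12.72 and 13.01, and the groups overlapped. The change was 0.02 at 5 (95% interval -0.12 to 0.15, limma adjusted p = 0.998) and 0.03 at 10 mg/kg/day (-0.11 to 0.16, adjusted p = 0.953).

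In liver both genes were dim. Scgb1a1 read 4.60, 3.93, 3.94, 5.10 and 3.27 in unexposed livers, 4.94, 3.68, 3.18, 3.16 and 3.14 at 5 mg/kg/day, and 3.11, 3.40, 3.34, 3.48 and 2.91 at 10 mg/kg/day. It passed the array-wide 40th percentile on 3 of 15 liver arrays and was therefore not tested with dose there. Scgb3a2 read 5.21, 4.59, 4.36, 8.01 and 4.63 in unexposed livers, 4.82, 4.51, 4.90, 4.83 and 4.71 at 5 mg/kg/day, and 4.87, 4.73, 4.89, 4.61 and 5.14 at 10 mg/kg/day. The unexposed litter 4 alone lay above 5.21. Its liver changes of -0.61 and -0.51 (limma adjusted p = 0.554 and 0.583) became 0.05 and 0.15 without that litter.

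Scgb3a1, Reg3g and Muc5b differed far more between lung litters than between doses. Scgb3a1 (1419699_at, chr11:49663595-49665118), a secretoglobin of the larger airways, read 10.27, 10.53, 10.99, 10.37 and 10.49 in unexposed lungs. It read 6.44, 11.06, 10.73, 10.94 and 11.51 at 5 and 11.51, 10.31, 10.46, 10.84 and 9.50 at 10 mg/kg/day. The low litter is litter 1 at 5 mg/kg/day, and the groups overlapped. The change was -0.39 at 5 (95% interval -1.91 to 1.13, limma adjusted p = 0.998) and -0.0042 at 10 mg/kg/day (-1.52 to 1.51, adjusted p = 0.999). Without that litter the change at 5 mg/kg/day was 0.53 (adjusted p = 0.999).

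Reg3g (1448872_at, chr6:78466269-78468874), a C-type lectin that kills Gram-positive bacteria, read 7.16, 7.67, 8.20, 7.06 and 7.75 in unexposed lungs. It read 3.77, 7.76, 7.59, 7.92 and 8.50 at 5 and 8.62, 7.50, 7.19, 7.74 and 6.37 at 10 mg/kg/day. The same litter was low, below every other lung litter. The changes were -0.46 (95% interval -1.90 to 0.98) and -0.09 (-1.53 to 1.35), with limma adjusted p of 0.998 and 0.988, and the first was 0.38 without that litter.

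Muc5b (1427626_at, chr7:141839059-141873089), a gel-forming secreted mucin, read 5.77, 6.51, 6.62, 6.11 and 6.24 in unexposed lungs. It read 5.23, 6.71, 6.51, 6.58 and 7.09 at 5 and 7.10, 6.22, 6.48, 6.78 and 5.58 at 10 mg/kg/day. Its lowest lung value was again litter 1 at 5 mg/kg/day, though nearer to the rest, and the groups overlapped. The changes were 0.17 (95% interval -0.49 to 0.83) and 0.18 (-0.48 to 0.84), with limma adjusted p of 0.998 and 0.936, and the first was 0.47 without that litter.

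These 3 genes ranked the lung litters in nearly the same order. Over the 15 litters, with each dose group centred on its mean, Scgb3a1 and Reg3g correlated with Pearson's r = 0.986 and Spearman's rho = 0.971 (two-sided permutation p = 4e-05 for each, adjusted p = 0.00056 over 28 member pairs). Scgb3a1 and Muc5b gave r = 0.896 and rho = 0.914 (permutation p = 1e-05 for each, the smallest that 100000 permutations can give, adjusted p = 0.00028). Muc5b and Reg3g gave r = 0.919 and rho = 0.889 (permutation p = 1e-04 and 7e-05, adjusted p = 0.000933 and 0.000653). After leaving out the 2 litters farthest from the median of the first gene of each pair, r was 0.950, 0.863 and 0.843. Scgb3a2 moved over a far narrower range and correlated with the same 3 genes, with r of 0.716 for Scgb3a1, 0.733 for Reg3g and 0.782 for Muc5b (permutation, adjusted p = 0.00651, 0.0109 and 0.0147). Its rho was 0.761, 0.779 and 0.836 (adjusted p = 0.0131, 0.0117 and 0.0123), and r without the 2 farthest litters was 0.699, 0.632 and 0.648. Those 6 of the 28 pairs had an adjusted p under 0.05. Scgb1a1 and Cyp2f2, both classic genes of club cells, gave r = 0.678 and rho = 0.511 (permutation, adjusted p = 0.0727 and 0.237), with r = 0.597 without the 2 farthest litters.

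**Figure D2:**
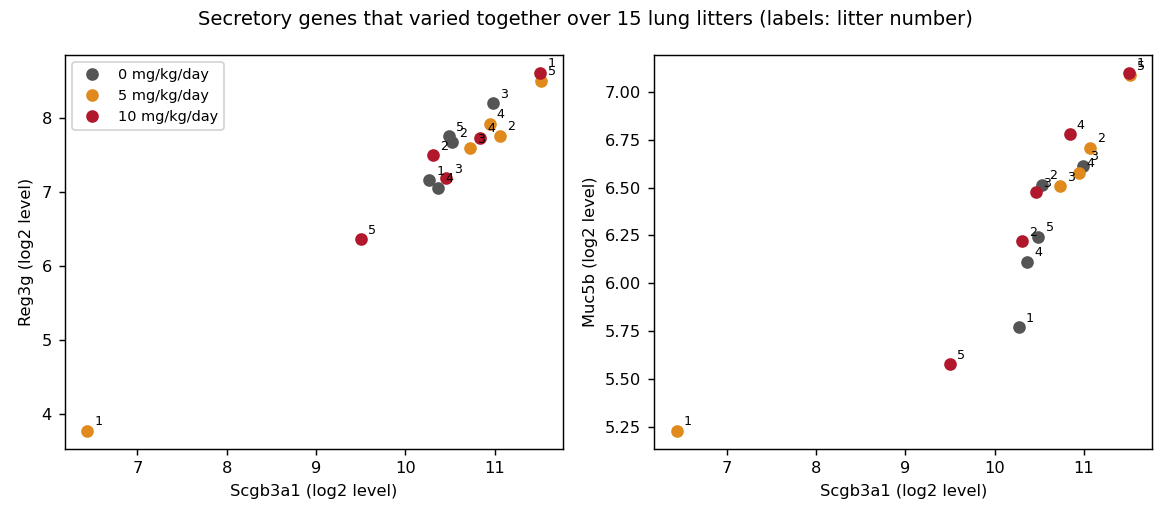
Log2 level of Reg3g (left, y axis) and Muc5b (right, y axis) against that of Scgb3a1 (x axes) in 15 lung litters, coloured by dose and numbered by litter. Litter 1 at 5 mg/kg/day lies at 6.44 for Scgb3a1 and 3.77 for Reg3g, and the doses are mixed along the rest of both plots.

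Hepatocyte genes in the lung samples moved against these 3 genes. The mean of the hepatocyte genes correlated with Muc5b at r = -0.753 and rho = -0.764, with Reg3g at r = -0.658 and rho = -0.729, and with Scgb3a1 at r = -0.611 and rho = -0.743 (permutation, adjusted p over 40 relations = 0.0318, 0.041 and 0.041 for r, and 0.0271 for each rho). Without the 2 farthest litters r was -0.667, -0.559 and -0.788. Scgb3a2 gave an r of like size, -0.702, with rho = -0.636 (permutation, adjusted p = 0.0681 and 0.132), and r = -0.512 without its 2 farthest litters. All 10 hepatocyte genes passed the filter in lung. Litter 1 at 5 mg/kg/day had the highest hepatocyte mean of the lung litters, 10.01, and the lowest cardiac mean, 6.93. The hepatocyte genes did not all move one way there: Alb in that group read 13.17, 12.02, 12.09, 12.02 and 12.34, and Afp, the fetal albumin relative, read 9.63, 10.90, 10.99, 11.19 and 11.51. The mean of 11 cartilage genes, of the kind found in the rings of large airways, was 3.69, 3.87, 4.12, 3.84 and 4.21 at 5 mg/kg/day, with the same litter lowest in that group. Over all lung litters the lowest was litter 5 at 10 mg/kg/day, 3.59. Of these 11 genes only 6 passed the filter in lung. The 40th percentile of the lung arrays was 4.16 to 4.22, so the cartilage means lay near or under it. Cartilage genes correlated with Scgb3a1, Reg3g and Muc5b at r of 0.617, 0.639 and 0.643 (permutation, adjusted p = 0.21, 0.178 and 0.178), which dropped to 0.26, 0.276 and 0.256 without the 2 farthest litters. The part of the sampled region in these values was not tested.

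By the same measure, the lung genes most like Scgb3a1 among 12897 were Reg3g, Muc5b, Agr2 (r = 0.886), Zfp87 (0.881) and Mfap5 (0.877). These 5 were taken as the highest, so they lie above the 95th percentile of r over all genes, 0.469, by construction. Without the 2 farthest litters, Agr2 gave 0.754, Zfp87 0.752 and Mfap5 0.616. Agr2, a protein folding factor of mucus-secreting cells, read 4.55, 5.48, 5.35, 5.59 and 4.73 in unexposed lungs, 3.48, 6.03, 5.47, 5.68 and 6.87 at 5 mg/kg/day, and 6.61, 5.74, 5.60, 5.49 and 4.30 at 10 mg/kg/day. It too was lowest in litter 1 at 5 mg/kg/day. The gene most like Muc5b was Sox2 (r = 0.923), a transcription factor of the conducting airway, followed by Reg3g, Agr2 (0.919), Scgb3a1 and Gspt2 (0.857). Without the 2 farthest litters, Sox2 gave 0.818, Agr2 0.768 and Gspt2 0.680 with Muc5b. Those most like Reg3g were Scgb3a1, Muc5b, Mfap5 (0.887), Agr2 (0.887) and Sox2 (0.864), and the last 3 gave 0.590, 0.685 and 0.780 without the 2 farthest litters. Scgb3a2 was most like A2ml1 (0.894), Mgp (0.883), Sdc2 (0.881), Gabrp (0.874) and Cadm3 (0.872). Without the 2 farthest litters these gave 0.833, 0.844, 0.872, 0.830 and 0.853. Scgb1a1 was most like Sp100 (0.903), Nectin3 (0.884), Trim30a (0.872), Slc39a8 (0.861) and Irf7 (0.856), and Sp100, Trim30a and Irf7 are known as interferon-induced genes. Without the 2 farthest litters these 5 gave 0.855, 0.728, 0.723, 0.856 and 0.762. These r are a description over 15 litters, with each dose centred.

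In liver, Scgb3a1 read 5.07, 4.87, 5.11, 7.55 and 4.82 at 0, 5.02, 4.59, 5.37, 5.04 and 5.40 at 5, and 5.28, 5.44, 5.19, 5.79 and 5.45 mg/kg/day at 10. Reg3g read 3.53, 3.52, 3.06, 5.21 and 3.28 in unexposed livers, 3.67, 3.29, 3.41, 3.61 and 3.64 at 5 mg/kg/day, and 3.95, 3.71, 3.60, 3.13 and 3.51 at 10 mg/kg/day. Litter 4 of the unexposed livers was the highest liver for both, as for Scgb3a2 and Scgb1a1. Sftpc, an alveolar gene, read 6.27, 5.35, 4.88, 4.93 and 4.45 in the unexposed livers, and that litter was not the highest. The club cell gene Cbr2 read 4.74, 4.55, 4.33, 5.44 and 4.19 there, and that litter was the highest. Why it differed was not tested. The changes of Scgb3a1 in liver were -0.40 and -0.05 (limma adjusted p = 0.635 and 0.957), and 0.11 and 0.46 without that litter. Muc5b read 5.68, 6.10, 5.88, 5.68 and 6.04 in unexposed livers, 6.01, 5.32, 5.50, 5.68 and 5.56 at 5 mg/kg/day, and 5.39, 5.88, 5.57, 5.50 and 5.58 at 10 mg/kg/day. Its groups overlapped, with changes of -0.26 and -0.29 (limma adjusted p = 0.259 and 0.163).

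Muc1 (1449199_at, chr3:89229056-89233381), a membrane-bound mucin of simple epithelia, was narrow in lung. It read 9.63, 9.65, 9.61, 9.81 and 9.89 in unexposed lungs, 9.52, 10.05, 9.78, 9.75 and 9.87 at 5 mg/kg/day, and 9.88, 9.80, 9.80, 9.96 and 9.93 at 10 mg/kg/day. All 5 litters at 10 mg/kg/day lay above the unexposed mean of 9.72, although the groups overlapped. The changes were 0.08 (95% interval -0.10 to 0.26, limma adjusted p = 0.998) and 0.16 (-0.03 to 0.34, adjusted p = 0.766). In liver Muc1 read 3.58, 5.15, 4.56, 4.42 and 4.87 at 0, 4.04, 4.19, 4.15, 4.27 and 4.06 at 5, and 4.38, 4.39, 4.75, 4.36 and 3.88 mg/kg/day at 10. The unexposed livers spanned the whole range of the exposed ones, and the changes were -0.37 and -0.16 (adjusted p = 0.379 and 0.715).

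Krt15 had the largest change of the 8 in lung at either dose with all litters, and it did not pass the test. Krt15 (1422667_at, chr11:100131759-100135949), a keratin of basal cells in layered epithelia, read 6.27, 6.45, 6.92, 6.75 and 6.80 in unexposed lungs. It read 6.76, 7.76, 7.39, 7.97 and 6.92 at 5 and 6.63, 7.76, 6.81, 7.03 and 7.17 at 10 mg/kg/day. All 5 litters at 5 mg/kg/day lay above the unexposed mean, and the groups overlapped. The change was 0.72 at 5 (SE 0.24, 95% interval 0.22 to 1.23, limma adjusted p = 0.978) and 0.44 at 10 mg/kg/day (SE 0.24, -0.06 to 0.95, adjusted p = 0.757). Leaving out litter 2, the highest at 10 mg/kg/day, made the change at that dose 0.27, below the 0.33 of Cyp2f2 without the same litter.

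Keratins of squamous epithelium, which lines the oesophagus and covers the skin, moved with Krt15 from litter to litter. Krt4, one of these keratins, read 3.97, 4.04, 6.43, 3.86 and 3.96 in unexposed lungs, 3.96, 7.51, 7.03, 7.61 and 3.81 at 5 mg/kg/day, and 4.10, 7.25, 4.20, 5.73 and 3.83 at 10 mg/kg/day. Krt13, its usual partner, read 2.61, 2.30, 5.23, 2.46 and 2.81 in unexposed lungs, 2.39, 6.42, 5.66, 6.36 and 2.74 at 5 mg/kg/day, and 2.57, 5.81, 2.63, 4.28 and 2.55 at 10 mg/kg/day. The same 6 litters were high in both: 1 unexposed, 3 given the lower dose and 2 given the higher. The mean of 8 squamous genes correlated with Krt15 at r = 0.844 and rho = 0.807 over the 15 dose-centred litters (permutation p = 0.00063 and 0.00214, adjusted p = 0.0252 and 0.0271 over 40 relations), and at r = 0.755 without the 2 farthest litters. That mean ran from 3.89 to 4.71 at 0, from 3.90 to 5.32 at 5 and from 3.97 to 4.96 mg/kg/day at 10. Of the 8 squamous genes 5 passed the filter in lung. The basal cell keratin Krt5 read only 4.16 to 5.20 over the lung litters. The genes most like Krt15 in lung were Tpm2 (r = 0.893), N4bp3 (0.891), Mid1 (0.884), Myh11 (0.871) and Krt13 (0.859), of which Tpm2 and Myh11 are known from smooth muscle. Without the 2 farthest litters these 5 gave 0.818, 0.883, 0.873, 0.782 and 0.781. The part of squamous epithelium in the Krt15 values was not tested.

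**Figure D3:**
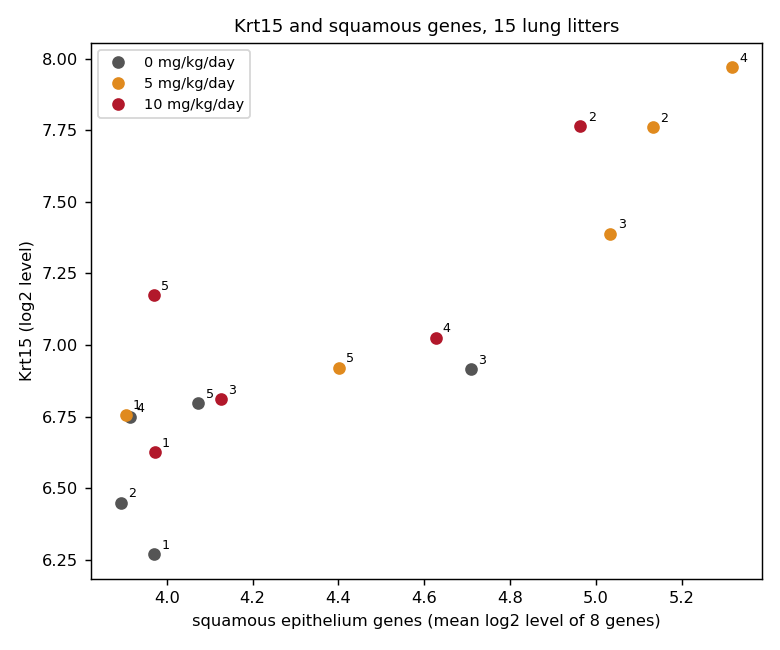
Log2 level of Krt15 (y axis) against the mean log2 level of 8 squamous epithelium genes (x axis) in 15 lung litters, coloured by dose and numbered by litter. The 4 litters with Krt15 above 7.25 have a squamous mean of 4.96 to 5.32, and 3 of them received 5 mg/kg/day.

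Krt15 in liver read 5.36, 4.56, 4.77, 4.49 and 5.03 at 0, 4.66, 4.98, 4.51, 4.92 and 5.08 at 5, and 4.18, 5.79, 5.39, 4.58 and 6.25 mg/kg/day at 10. Litter 5 at 10 mg/kg/day, the highest liver for Krt15, also had the highest liver values of Krt4, 7.04, of Krt13, 5.80, and of the squamous mean, 6.19. The liver changes of Krt15 were -0.01 and 0.40 (limma adjusted p = 0.991 and 0.482).

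Cyp2f2 was the 1 member called with PFOS, in liver and not in lung. Cyp2f2 (1448792_a_at, chr7:27119955-27133660), which in mice turns naphthalene into a toxic epoxide in club cells and is also made in liver, read 9.73, 9.72, 9.71, 9.21 and 9.49 in unexposed livers. It read 9.13, 8.95, 8.92, 8.15 and 8.74 at 5 and 8.14, 8.52, 8.52, 7.82 and 8.63 at 10 mg/kg/day. Every exposed liver lay below every unexposed one, and the exposed groups overlapped each other. The change was -0.79 at 5 mg/kg/day (SE 0.18, 95% interval -1.18 to -0.41, limma adjusted p = 0.0147, 1.73-fold lower). At 10 mg/kg/day it was -1.24 (SE 0.18, -1.63 to -0.86, limma adjusted p = 2.58e-04, 2.37-fold lower). Cyp2f2 was thus 1 of 6 members called at each dose, where 6.06% of all 13270 liver genes were called at 5 and 10.5% at 10 mg/kg/day, and 1.8% and 5.21% of all 13270 were called lower. Among genes called lower its fall ranked 15th in size at 5 and 19th at 10 mg/kg/day. Between 10 and 5 mg/kg/day it differed by -0.45 (SE 0.18, 95% interval -0.83 to -0.07, limma adjusted p = 0.581), where 0 members and 0.00754% of all genes were called. The hepatocyte mean ran from 12.98 to 13.04 at 10 and from 13.06 to 13.13 in unexposed livers, which did not overlap. Of its 10 genes 3 fell at 10 mg/kg/day: the urea cycle enzyme Cps1 by 0.47 (limma adjusted p = 0.00265), the plasma protein Ahsg by 0.18 (adjusted p = 0.0177) and the apolipoprotein Apoa1 by 0.17 (adjusted p = 0.0251). Another 3 of the 10 had a positive change without a call, at most 0.10, and the median change of the list was -0.07. The part of hepatocyte genes in the Cyp2f2 values was not tested.

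In lung Cyp2f2 read 10.14, 10.07, 10.07, 10.09 and 10.16 at 0, 10.48, 10.36, 10.61, 10.05 and 10.38 at 5, and 10.54, 10.09, 10.43, 10.59 and 10.17 mg/kg/day at 10. The unexposed litters were close together (10.10 ± 0.04, SD, n = 5), and 4 of 5 litters at each dose lay above their mean. The changes were 0.27 at 5 (SE 0.11, 95% interval 0.05 to 0.50, limma adjusted p = 0.990) and 0.26 at 10 mg/kg/day (SE 0.11, 0.03 to 0.48, limma adjusted p = 0.643). Neither passed the test over all genes. The hepatocyte mean correlated with Cyp2f2 in lung at r = -0.269 (permutation, adjusted p = 0.71). The lung genes most like it were Pdzd2 (r = 0.884), Irf1 (0.860), Epas1 (0.851), Trim12c (0.848) and Tex14 (0.845), and those most like Muc1 were Acta1 (0.882), Rbm42 (0.865), Sox13 (0.855), Abca9 (0.836) and Fbln2 (0.828). Without the 2 farthest litters, those for Cyp2f2 gave 0.742, 0.723, 0.752, 0.667 and 0.675. Those for Muc1 then gave 0.734, 0.718, 0.804, 0.688 and 0.596.

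The response of Cyp2f2 differed between the tissues. The lung change minus the liver change was 1.07 at 5 (SE 0.22, 95% interval 0.62 to 1.52, limma adjusted p = 0.00544) and 1.50 at 10 mg/kg/day (SE 0.22, 1.05 to 1.95, adjusted p = 5e-05). It was the 1 member called at each dose among the 6 that passed the filter in both tissues. Of 13880 genes, 2.05% and 3.88% were called in either direction. Those genes needed to pass on any 5 of the 30 arrays, a looser filter than that on the 6 members. Its difference ranked 6th at 5 and 5th at 10 mg/kg/day among genes called with the lung change above the liver change. For the other 5 of those 6 the adjusted p of this difference ran from 0.503 to 0.997 at 5 and from 0.574 to 0.989 at 10 mg/kg/day.

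**Figure D4:**
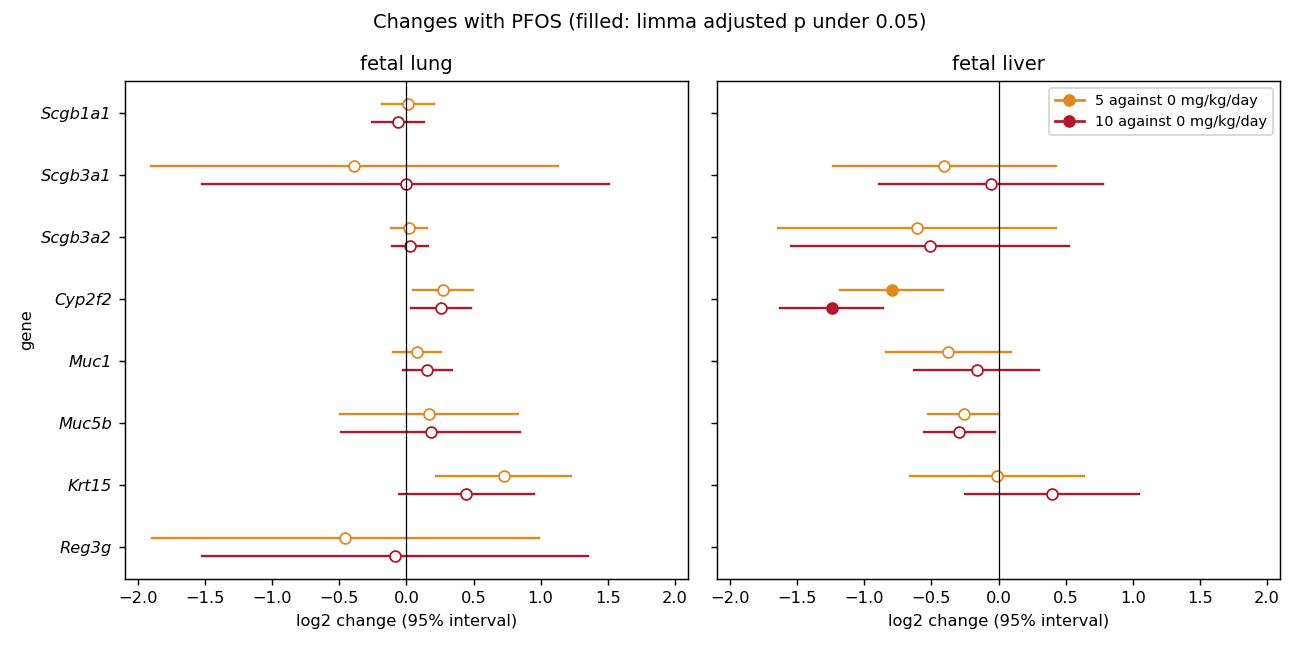
Log2 change with PFOS (x axis, limma estimate and 95% interval, 5 litters per group) of each member (y axis) in fetal lung (left) and fetal liver (right), at 5 (upper) and 10 mg/kg/day (lower) against 0. Filled points passed the adjusted threshold, as only Cyp2f2 in liver did at -0.79 and -1.24; Scgb1a1 and Reg3g were too dim in liver to be tested.

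Stretches of 250 bases before the start of 3 members are shown because Cyp2f2 is the member that fell in liver and Scgb3a1 and Reg3g are the pair with the highest r in lung. RefSeq promoters on GRCm38.p6 were found for 4 of the 8 members. The stretches lie at chr7:27119705-27119954 on the plus strand for Cyp2f2, chr11:49663345-49663594 on the plus strand for Scgb3a1 and chr6:78468875-78469124 on the minus strand for Reg3g. They are written 5′ to 3′, and capitals mark a match to a searched motif.
Cyp2f2: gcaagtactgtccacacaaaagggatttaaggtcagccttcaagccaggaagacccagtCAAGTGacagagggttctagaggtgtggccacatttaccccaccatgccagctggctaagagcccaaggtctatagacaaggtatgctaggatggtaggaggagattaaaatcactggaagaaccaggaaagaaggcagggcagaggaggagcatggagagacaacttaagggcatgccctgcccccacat
Scgb3a1: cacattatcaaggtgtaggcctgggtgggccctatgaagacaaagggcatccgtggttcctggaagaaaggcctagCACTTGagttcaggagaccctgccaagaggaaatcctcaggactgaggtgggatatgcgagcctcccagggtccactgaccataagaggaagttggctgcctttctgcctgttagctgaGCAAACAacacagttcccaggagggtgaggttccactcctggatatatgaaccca
Reg3g: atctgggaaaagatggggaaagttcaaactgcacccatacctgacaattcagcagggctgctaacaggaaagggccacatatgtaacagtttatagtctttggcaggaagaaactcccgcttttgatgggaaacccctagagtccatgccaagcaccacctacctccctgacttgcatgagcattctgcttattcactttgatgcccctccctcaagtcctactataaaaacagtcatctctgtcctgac
Motifs were searched on both strands and are short: the NKX2-1 core CAAGTG, the FOXA core TGTTTAC or TGTTTGC, and the C/EBP core TTGCNNAA. Cyp2f2 held CAAGTG at -191 to -186 from the start. Scgb3a1 held the NKX2-1 core on the other strand, as CACTTG, at -174 to -169, and a FOXA core, as GCAAACA, at -55 to -49. Reg3g held none of the 3 in this window. Of 32851 promoters, 11.6% held the NKX2-1 core, 7.29% the FOXA core and 9.56% the C/EBP core. A match describes letters and does not show binding.

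Without PFOS, the members that passed the filter in both tissues were called higher in lung than in liver, except Muc5b. Of 13880 genes that passed on any 5 of the 30 arrays, 40.3% were higher in lung and 82.9% differed in either direction. Scgb1a1 averaged 12.84 ± 0.11 in lung and 4.17 ± 0.70 in liver (SD, n = 5 each), and Reg3g 7.57 ± 0.47 in lung and 3.72 ± 0.86 in liver. Both lay above the filter level on few liver arrays, 3 of 15 for Scgb1a1 and 1 of 15 for Reg3g, and entered this fit through their lung arrays. For these 2 the levels are given, and they are left out of the count and given no size of difference. Scgb3a2 averaged 12.84 ± 0.07 in lung and 5.36 ± 1.51 in liver, a difference of 7.48 (SE 0.37, limma adjusted p = 4.53e-17), and 8.14 without the unexposed liver of litter 4 and the lung of litter 1 at 5 mg/kg/day. The same omission moved Scgb3a1 to 5.56, against 5.04 (SE 0.61) with all litters (limma adjusted p = 1.62e-08). Muc1 averaged 9.72 ± 0.12 in lung and 4.51 ± 0.59 in liver, a difference of 5.20 (SE 0.18, limma adjusted p = 4.67e-21).

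The other 3 members differed less between the tissues. Krt15 averaged 6.64 ± 0.27 in lung and 4.84 ± 0.36 in liver, a difference of 1.79 (SE 0.29, limma adjusted p = 2.34e-06). Cyp2f2 averaged 10.10 ± 0.04 in lung and 9.57 ± 0.23 in liver, a difference of 0.53 (SE 0.16, limma adjusted p = 0.00271, 1.45-fold). Muc5b averaged 6.25 ± 0.34 in lung and 5.88 ± 0.20 in liver, which overlapped, and its difference of 0.38 was not called (95% interval -0.14 to 0.89, limma adjusted p = 0.167). Dim probe sets give compressed differences, so a fold against a dim liver level can be understated.

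Other genes of airway cells were not called in lung either. Of 17 other club cell genes tested, 0 passed at either dose, with 1 and 2 at an unadjusted p under 0.05 and a median change of 0.09 and 0.05. The smallest p at 10 mg/kg/day in that list belonged to Retnla, a resistin-like secreted protein, with a change of -0.53 (limma adjusted p = 0.261), and next to Lypd2 at 0.41 (adjusted p = 0.594). None was called among 12 other mucin and goblet genes, 20 airway transcription factor and Notch genes, 5 basal cell genes, 9 simple epithelium genes or 12 ciliated cell genes at either dose (limma). In that order, 0, 2, 0, 1 and 0 genes at the lower dose, and 0, 3, 1, 3 and 1 at the higher, had an unadjusted p under 0.05. The values nearest to a call at 10 mg/kg/day were Perp, a desmosome-associated protein, at 0.30 (adjusted p = 0.364), the adhesion molecule Epcam at 0.18 (adjusted p = 0.594), the Notch receptor Notch2 at -0.19 (adjusted p = 0.616) and the epithelial factor Elf3 at 0.22 (adjusted p = 0.625). All 9 simple epithelium genes at 5 and 8 of 9 at 10 mg/kg/day had a positive change, with a median of 0.07 and 0.15. Genes of other cells were also one-sided at 10 mg/kg/day without a call: 0 of 9 alveolar type 2 genes were positive (median -0.11), and 9 of 9 cardiac muscle genes were (median 0.56). At 5 mg/kg/day 4 of 9 alveolar type 2 genes (median -0.04) and 2 of 9 cardiac muscle genes (median -0.23) were positive.

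In liver more of these genes passed, beside 6.06% and 10.5% of all genes at 5 and 10 mg/kg/day. In lung those shares of all genes were 0.0155% and 0.0543%. Several of the listed genes also serve other cells. Of 14 other club cell genes, 2 rose at both doses and 1 fell at 10 mg/kg/day. Ces1d, a carboxylesterase, rose by 1.08 and 1.17 (limma adjusted p = 1.15e-04 and 2.65e-05), and Aldh1a1, which makes retinoic acid, rose by 1.34 and 1.88 (adjusted p = 0.0171 and 9.59e-04). Iyd, which recycles iodide from tyrosines, fell at 10 mg/kg/day by 0.55 (adjusted p = 0.00328). The median change of that list was -0.07 and -0.0023, against -0.014 and -0.023 over all liver genes.

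Of 5 basal cell genes in liver, 1 rose at both doses, Aqp3, a water and glycerol channel, by 1.79 and 1.95 (limma adjusted p = 8.06e-09 and 2.13e-09). Of 9 simple epithelium genes, 1 rose at 5 and 3 at 10 mg/kg/day. The keratin Krt18 rose by 0.40 and 0.52 (adjusted p = 0.00516 and 3.57e-04), and at 10 mg/kg/day its partner Krt8 rose by 0.32 (adjusted p = 0.0221) and the tight junction gene Cldn7 by 1.09 (adjusted p = 0.0338). Of 14 mucin and goblet genes, 0 were called at 5 (2 at an unadjusted p under 0.05) and 2 fell at 10 mg/kg/day: the iron-binding secreted proteins Ltf by 0.38 (adjusted p = 0.0328) and Lcn2 by 0.31 (adjusted p = 0.0406). The cilium-associated adenylate kinase Ak7 fell by 0.57 and 0.52 (adjusted p = 0.00423 and 0.0054), 1 of 6 ciliated cell genes. Gata6 at 5 mg/kg/day fell by 0.32 (adjusted p = 0.018), 1 of 18 airway transcription factor and Notch genes, and limma called 0 of 18 at 10 mg/kg/day, where 4 had an unadjusted p under 0.05.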

How the data were processed

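Each of the 30 Affymetrix arrays is 1 litter sample. The authors deposited log2 values per probe set, computed with RMA per the submitters' processing notes. Its version, and whether both tissues were normalized jointly, were not given in the sources used here. Array means were 5.09 to 5.10 in lung and 5.08 to 5.09 in liver. Of 45101 probe sets, 34958 had 1 symbol, and a gene with several probe sets was read from the one of highest mean level.

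Genes were tested if they exceeded an array's 40th percentile (4.16 to 4.23) on at least 5 arrays of a fit. Limma 3.58.1 in R 4.3.3 fitted 1 mean per dose over the 15 arrays of a tissue, and 1 mean per tissue and dose over 30 arrays for tissue differences. P-values were two-sided, Benjamini-Hochberg adjusted over all genes tested, and called under 0.05. Intervals are the fit's 95% intervals. Correlations used dose-centred levels and 100000 permutations within doses.

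The named genes were the 8 members, up to 6 called genes per list (or the 2 with the smallest p) and the 5 genes most like each member. The members and lists were chosen with earlier results of these data known. The fits were tested on simulated data. Alternatives were the filter, normalization, variance model, array weights, samples fitted, replicate block and leaving out each litter. The labels give no batch, and the number of litters limits precision.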

Additional observations from a re-analysis of the deposited data

Results flagged for a closer look

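Among the 48 groups of 5 litters (8 genes, each tissue and dose), 6 held a litter far from the other 4. The rule flags about 1 in 20 independent groups by chance. These groups are not independent, since the genes share arrays and several moved together, so the count is not compared with that rate. In lung at 5 mg/kg/day, litter 1 read 6.44 for Scgb3a1 (the other 4 read 10.73 to 11.51) and 3.77 for Reg3g (the others 7.59 to 8.50). In the same group litter 4 read 12.70 for Scgb1a1 (the others 12.88 to 12.92). Among the unexposed livers litter 4 read 7.55 for Scgb3a1 (the others 4.82 to 5.11), 8.01 for Scgb3a2 (the others 4.36 to 5.21) and 5.21 for Reg3g (the others 3.06 to 3.53).

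The change of Cyp2f2 differed between the tissues: the lung change minus the liver change was 1.07 at 5 and 1.50 at 10 mg/kg/day, by the limma test of that difference (adjusted p = 0.00544 and 5e-05).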

How the results depend on the processing

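Of 1518 results of single members under the alternatives, 1502 kept their direction and side of the threshold, 3 newly passed it (Muc1 in 2 comparisons and Muc5b), 0 lost a call and 13 changed sign by more than 1 SE or while called. A further 69, within 1 SE of 0, changed sign and are counted as kept. Scgb1a1 and Reg3g in liver, not tested there, are not among these results. Leaving out 1 litter at a time gave, for 5 against 0 mg/kg/day in lung, -0.73 to 0.53 for Scgb3a1 and -0.80 to 0.38 for Reg3g. For 10 against 5 mg/kg/day in lung it gave -0.54 to 0.73 for Scgb3a1 and -0.46 to 0.72 for Reg3g. The upper ends of the first comparison and the lower ends of the second came from leaving out litter 1 of the lungs at 5 mg/kg/day. In liver it gave -0.57 to 0.11 (5 mg/kg/day) and -0.22 to 0.46 (10 mg/kg/day) for Scgb3a1, and -0.86 to 0.054 and -0.76 to 0.15 for Scgb3a2, with the positive ends from leaving out litter 4 of the unexposed livers. For the lung change minus the liver change it gave -0.63 to 0.57 for Reg3g at 5 mg/kg/day, and -0.036 to 0.87 at 5 and -0.12 to 0.79 at 10 mg/kg/day for Scgb3a2. Without both of those litters, an alternative chosen after seeing the data, the Scgb3a2 difference was -0.00055 and -0.12. The number of members called in liver at 5 mg/kg/day was 1 to 2, and for the tissue difference at 5 mg/kg/day 1 to 2. The higher count came in both from leaving out litter 1 of the unexposed livers, which added Muc1 (-0.61, limma adjusted p = 0.0382, and 0.69, adjusted p = 0.0495). With both tissues in 1 fit 2 members were called in liver at 10 mg/kg/day, adding Scgb1a1 (-0.92, adjusted p = 0.0215), which entered that fit through its lung arrays and read only 2.91 to 3.48 in the livers at that dose, under the filter, so the call is not read as a change. With the unexposed groups alone Muc5b was called higher in lung than in liver (adjusted p = 0.0357). The cause of these changes was not tested beyond the litters and settings named. The labels do not say whether lung and liver arrays of the same dose and number share a litter, so they were not taken as pairs. They correlated at 0.00144 to 0.354, over 0.1 in 12 of 15. Of the lung arrays 12 correlated best with their own number, a hint of pairing from the data and not from the design. With those 2 arrays as a block, the Cyp2f2 tissue difference was 1.07 and 1.50 (limma adjusted p = 0.00292 and 2.19e-05). All-gene calls of that difference were then 356 and 685, against 285 and 539 without it. A further setting took the number as a replicate block within a tissue, where the same number is a different litter at each dose. With it 1 member was called in liver at each dose, Cyp2f2 at -0.79 (limma adjusted p = 0.00121) and -1.24 (adjusted p = 2.6e-05), and 0 were called in lung. The all-gene calls in lung at 10 mg/kg/day, 7 in the report, were 4 with that block, 3 to 14 over all settings other than leaving out litters, and 3 to 11 on leaving out 1 litter: 11 and 3 without the litters 1 and 5 given 10 mg/kg/day, and 4, 3 and 4 without the unexposed litters 1, 3 and 4. Those in lung at 5 mg/kg/day were 2 to 4, and those between the doses 0 to 1 in lung and 0 to 5 in liver.

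Arrays have no read depth. Scgb1a1 and Reg3g were too close to background in liver for a test in the fit of that tissue.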
